A study of Mus musculus with 16 samples.

Results

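The comparison of RBM45 knockout clones with Cas9 control clones took 8 of the 16 libraries of the series, 4 on each side. RBM45 KO was represented by 2 clones, KO clone 1 and KO clone 2, each isolated after Cas9 editing with a guide RNA and each sequenced as 2 libraries. The control side was represented by 2 clones that received Cas9 without a guide RNA. Their table columns are named e1 and e4 and are called control clones e1 and e4 here, because the names do not show which is clone 1 or clone 2. All 4 clones derive from mHiPPoE-2, an immortal cell line made by transforming neurons of the embryonic mouse hippocampus, and were grown with serum and no treatment. Each clone descends from 1 cell, so a difference between clones can come with the clone as well as with the edit. The libraries were chosen by their column names and labels and not by any measured value.

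RNA was measured by sequencing of total RNA after removal of ribosomal RNA, and counted over whole genes, introns included, and over exon bins, the separate stretches into which the annotated exons of a gene divide. The edit was made once per clone, so the clone is the unit of the genotype comparison. It was tested on the counts of the 2 libraries of a clone added together, with 2 clones a side. The 2 clones with restored RBM45 entered that fit only to lend their spread. A second test compared each KO clone with each control clone at the spread between libraries, which gives 4 pairs of clones. These pairs share clones, are not independent, and compare clones rather than genotypes. Levels are CPM, read counts scaled to a common library size. SD is between libraries, and changes are log2 of KO over control.

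RBM45 is an RNA-binding protein of the nervous system with several RNA recognition motifs, and the series studies it as a protein that binds N6-methyladenosine (m6A) and affects splicing. m6A is a methyl mark on adenosines of messenger RNA, written by the METTL3 and METTL14 complex and read by proteins that alter splicing, export, translation or decay. A protein bound to a pre-mRNA can hide or favour a splice site or a site where the transcript is cut and polyadenylated, so that its loss can alter which exons a gene's RNA contains.

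Depth and cell identity set the limits of what follows. The 8 libraries held 12449202 to 18751324 counts over genes, and 12 rows of abundant RNA took 58.6% to 70.6% of them. Of 12 measured neuron markers 3 averaged over 1 CPM (Map2, Syn1 and Gap43), while Dcx, Nefl and Stmn2 were at 0 in all 8 libraries and Rbfox3 and Tubb3 averaged under 1 CPM. Of 11 mesenchymal markers 9 averaged over 1 CPM, led by Fn1, Col1a1 and Acta2, with a summed level of 2467 to 4366 CPM in KO libraries and 2396 to 3680 CPM in control libraries. The summed neuron markers were at 97.9 to 163 CPM in KO libraries and 135 to 180 CPM in control libraries. Astrocyte markers summed to 0.586 to 2.41 CPM in KO and 2.56 to 25.4 CPM in control, with 1 of 6 over 1 CPM. For oligodendrocyte markers the sums were 94.1 to 146 CPM in KO and 110 to 132 CPM in control, with 2 of 9 over 1 CPM and Olig2 at 0. Microglia markers summed to 47.2 to 59.5 CPM in KO and 39.2 to 53.0 CPM in control, with 3 of 5 over 1 CPM. None of 5 endothelial markers averaged over 1 CPM. The neuron label thus rests on few of its defining markers in these clones. In these bulk libraries, fewer cells with an RNA and less of it per cell cannot be told apart.

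Rbm45 itself (chromosome 2, 76369984 to 76383768, plus strand, GRCm38) was still counted in the edited clones. Its level was 10.7 and 7.67 CPM in the libraries of KO clone 1 and 5.70 and 8.03 CPM in those of KO clone 2, against 15.99 and 16.6 CPM in control clone e1 and 12.8 and 13.4 CPM in control clone e4. Every KO library lay below every control library, and the unedited line averaged 12.6 CPM. The log2 change was -0.88 (SE 0.20), with an unadjusted p of 0.00406 and an adjusted p of 0.754 by edgeR's quasi-likelihood test, so it did not pass. In the library fit 3 of the 4 pairs passed. Over its 10 exon bins the difference in level was widest in the first. That bin stood at 0.964 ± 0.624 CPM in KO and 3.65 ± 0.884 CPM in control (SD, n = 4 libraries each). No Rbm45 bin passed relative to the gene (adjusted p 1 for each, diffSpliceDGE of edgeR). The first bin had the smallest p there, with a log2 change of -1.03 relative to the gene (SE 0.33, unadjusted p 0.00383). It held 7.75% ± 2.60 of the gene's exon counts in KO and 16.6% ± 2.63 in control, without overlap. A lower count of RNA does not show whether protein was made.

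The clearest difference lay inside Ide (chromosome 19, 37268743 to 37337852, minus strand), the gene of insulin-degrading enzyme, a zinc metalloprotease that cleaves insulin and amyloid-beta peptides. RBM45 KO clones had an RNA segment in an intron of Ide that control clones nearly lacked, and had less of every coding bin with counts, most of all those after that intron. The segment is an exon bin of 1987 bp at chr19:37301663-37303649. It belongs to the last exon, exon 5, of Ide-203 (37301663 to 37313573), which the annotation calls a processed transcript without a coding sequence. In Ide-201, the annotated coding transcript with 24 exons, it lies inside intron 11 (37298175 to 37303893). The annotation gives Ide-201 an incomplete start, so its exon numbers are those of the annotated part.

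Both annotated RNAs part after the same 30 bases. The sequences below are shown because they mark the place where KO and control counts of Ide part most. They were read from GENCODE release 21 transcripts, minus strand of chromosome 19, 5′ to 3′, with the last 30 bases of exon 11 of Ide-201 (exon 4 of Ide-203) in lower case and the first 60 bases of the following exon in capitals.
Ide-203, exon 4 to exon 5 (capitals chr19:37303619-37303678): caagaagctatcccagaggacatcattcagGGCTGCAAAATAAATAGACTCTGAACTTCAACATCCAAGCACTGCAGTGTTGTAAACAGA
Ide-201, exon 11 to exon 12 (capitals chr19:37298115-37298174): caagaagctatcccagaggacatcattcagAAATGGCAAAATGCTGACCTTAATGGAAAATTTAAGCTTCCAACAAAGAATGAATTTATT
Exon 5 of Ide-203 begins 215 bases after the end of exon 11. In the frame of Ide-201, which ends exon 11 on a whole codon, exon 5 holds 7 codons before a stop. The counted bin starts 29 bases into that exon.

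In the bin the counts were 55 and 92 in the libraries of KO clone 1 and 80 and 102 in those of KO clone 2, against 10 and 8 in control clone e1 and 7 and 7 in control clone e4. All 4 KO libraries lay above all 4 control libraries, with a gap several times the spread within either side. The level was 7.07 ± 0.939 CPM in KO and 0.552 ± 0.129 CPM in control (SD, n = 4 libraries each). The bin held 22.9% ± 3.49 of the exon counts of Ide in KO and 0.637% ± 0.117 in control. Relative to its gene the bin rose by 5.24 on the log2 scale in KO (SE 0.25, adjusted p 7.67e-31, diffSpliceDGE of edgeR on clone sums), and of 103934 bins tested in the pairs it was the 1 called in all 4, with changes of 5.10, 5.39, 5.05 and 5.33. Bins called higher in all 4 pairs made up 0.000962% of those tested.

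The short neighbours of the bin were also higher in KO. The 29 bp at the start of exon 5 had 6, 9, 11 and 7 counts in the KO libraries and 0, 1, 0 and 2 in the control libraries. The 215 bp between exon 11 and exon 5 had 4, 5, 6 and 11 counts in the KO libraries and 0, 2, 0 and 2 in the control libraries. Neither was tested, since both lay under the minimum of 10 counts on average.

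**Figure D1:**
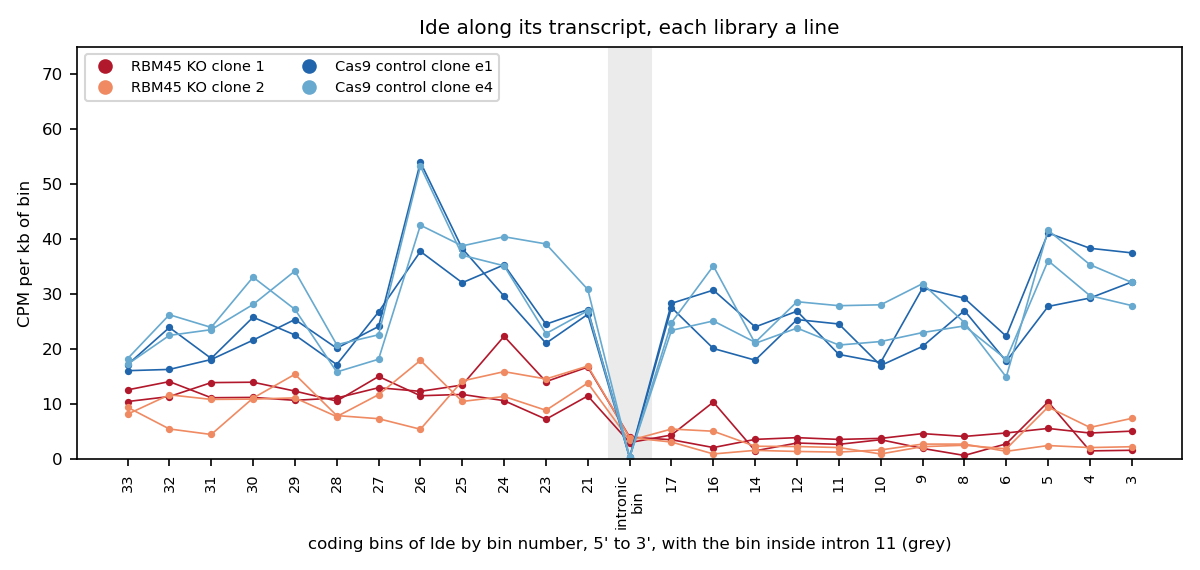
CPM per kb of each Ide coding bin that had counts, ordered 5′ to 3′ by bin number, with the intronic bin in grey; each line is 1 library. KO lines run below control lines before the intron and farther below after it, while in the intronic bin the 4 KO libraries lie above the control libraries.

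Coding bins on either side of the intron differed in how far KO lay below control. Before the intron, 13 coding bins over 1436 bp, of which 1 had no counts, had 11.7 and 13.2 CPM per kb in KO clone 1 and 10.6 and 9.97 in KO clone 2, against 23.4 and 22.1 in control clone e1 and 26.8 and 25.5 in control clone e4. After it, 12 coding bins over 1431 bp had 3.15 and 4.09 CPM per kb in KO clone 1 and 3.28 and 1.91 in KO clone 2, against 27.1 and 22.9 in control clone e1 and 25.4 and 23.8 in control clone e4. The libraries of KO and control did not overlap on either side. Control was 2.15 times KO before the intron and 7.98 times KO after it. The density after the intron was 27.05% ± 5.62 of that before it in KO and 102% ± 10.4 in control (SD, n = 4 libraries each). Bin by bin, KO over control ran between 0.251 and 0.591 before the intron and between 0.0944 and 0.190 after it, so the ranges of the 2 sides did not overlap. None of these bins singly passed diffSpliceDGE in the clone fit. Of the coding bins after the intron, limma's diffSplice called bin 8 (adjusted p 0.00883) and bin 6 (adjusted p 0.0304). In edgeR's pairs bin 8 passed in 2 and bin 6 in 1. Bin 1, the last 1687 bp of the gene, is not among these coding bins. It had an adjusted p of 0.000347 by limma's diffSplice and 0.412 by diffSpliceDGE in the clone fit, and passed in 3 pairs.

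Over the whole gene body, Ide stood at 26.5 and 28.4 CPM in KO clone 1 and 23.7 and 21.7 CPM in KO clone 2, against 54.6 and 52.1 CPM in control clone e1 and 55.7 and 60.8 CPM in control clone e4. The unedited line (WT) averaged 51.8 CPM, just under the control libraries. The log2 change was -1.15 (SE 0.15, unadjusted p 0.000256), and -1.49 over exon bins alone. It was called lower in all 4 pairs and was not called in the clone fit (edgeR quasi-likelihood adjusted p 0.754).

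Beyond Ide, 3 exon bins passed the clone test, so that 2 bins were called higher (0.00142% of 140500) and 2 lower (0.00142%). None of the 3 passed in all 4 pairs. The count of called bins was 1 without KO clone 2 and 2 without KO clone 1, and the Ide bin passed in each case. In Nfix (chromosome 8, minus strand), which codes for a nuclear factor I transcription factor of neural stem cells and muscle, the bin is the first 204 bp of exon 1 of Nfix-202 (84800141 to 84800344) and lies in the 5′ UTR. It had 13 and 17 counts in KO clone 1 and 27 and 32 in KO clone 2, against 2 and 3 in control clone e1 and 3 and 7 in control clone e4. All KO libraries lay above all control libraries. The bin rose by 2.65 on the log2 scale relative to Nfix (SE 0.24, adjusted p 1.38e-04, diffSpliceDGE), yet held only 0.565% ± 0.132 of the gene's exon counts in KO and 0.0936% ± 0.0577 in control (SD, n = 4 libraries each). Downstream in the same exon, the next 116 bp stood at 5.13 CPM in KO and 2.61 CPM in control, and the last 27 bp at 3.76 CPM in KO and 2.63 CPM in control, and neither passed. The call was lost without control clone e1 (adjusted p 0.429) and without KO clone 2 (adjusted p 0.298).

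In Tacc2 (chromosome 7, plus strand), which codes for a coiled-coil protein of centrosomes and microtubules, the bin is a whole coding exon of 5121 bp (130621721 to 130626841). It is exon 3 of a coding transcript of 22 exons, where it makes up 56.7% of 9029 bases, and 3 of the 18 annotated transcripts hold it. Its length is a whole number of codons, 1707. Both of its joins in that transcript are shown, because they mark the ends of the exon whose share differed. They are on the plus strand, 5′ to 3′, with exon 3 in capitals, from GENCODE release 21.
Tacc2, exon 2 to exon 3 (capitals chr7:130621721-130621780): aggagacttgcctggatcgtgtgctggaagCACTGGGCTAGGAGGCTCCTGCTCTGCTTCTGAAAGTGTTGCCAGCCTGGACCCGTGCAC
Tacc2, exon 3 to exon 4 (capitals chr7:130626782-130626841): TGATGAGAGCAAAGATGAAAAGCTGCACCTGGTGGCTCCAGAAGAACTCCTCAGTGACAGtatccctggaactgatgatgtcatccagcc
The exon had 5 and 10 counts in KO clone 1 and 4 and 7 in KO clone 2, against 46 and 33 in control clone e1 and 32 and 44 in control clone e4. It made up 1.49% ± 0.637 of the exon counts of Tacc2 in KO and 7.95% ± 3.07 in control (SD, n = 4 libraries each), and no KO library reached a control library. Relative to its gene it fell by 2.33 on the log2 scale (SE 0.38, adjusted p 0.00133, diffSpliceDGE). A bin of 523 bp farther downstream (130728860 to 130729382) stood at 3.76 CPM in KO and 2.71 CPM in control. The call was lost without control clone e4 (adjusted p 0.376), KO clone 1 (0.298) or KO clone 2 (1).

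In Hmgn1 (chromosome 16, minus strand), which codes for a small protein that binds nucleosomes, the bin is the 30 bp of coding exon 2 (96127432 to 96127461), shown whole, in capitals, from GENCODE release 21, minus strand, because a feature this short is hard to count.
Hmgn1, exon 2 (chr16:96127432-96127461): GTTAGCGCGGATGGAGCCGCCAAGGCGGAG
It had 1 and 28 counts in KO clone 1 and 25 and 0 in KO clone 2, against 309 and 128 in control clone e1 and 16 and 96 in control clone e4. The sides overlapped, and libraries of 1 clone differed as widely as the genotypes. The bin fell by 2.66 relative to its gene (SE 0.38, adjusted p 7.57e-04, diffSpliceDGE), but no pair of clones passed, limma's diffSplice gave an adjusted p of 0.0570, and the call was lost without either KO clone (adjusted p 0.441 and 1). Hmgn1 also has processed copies in the genome, and multi-mapping reads were left out, so its short bins are uncertain.

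**Figure D2:**
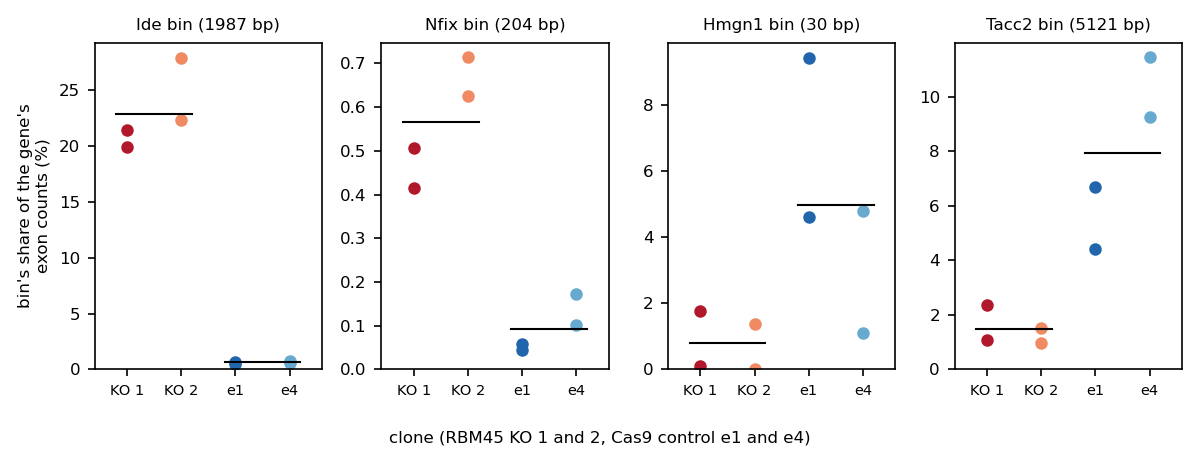
Share of a gene's exon counts that fell in each called bin, in percent; each point is 1 library and each bar the mean of 4 libraries. The Ide and Nfix bins hold a larger share in the KO libraries and the Tacc2 bin a smaller one without overlap, while KO and control libraries overlap in the Hmgn1 bin.

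Across genes, no difference passed the clone test: of 16867 genes tested with edgeR's quasi-likelihood method 0 were called (0%), and the smallest adjusted p was 0.754. At an unadjusted p under 0.05 there were 542 genes higher in KO (3.21%) and 441 lower (2.61%). DESeq2 called 6 genes, among them Dusp18, Ide, H2afy2, Sytl5 and Nacc2, and edgeR called 10 without control clone e1 and 8 without KO clone 1. Every KO library lay above every control library in 595 genes (3.53%) and below in 548 (3.25%). With 2 clones a side, the smallest p of an exact permutation test, two-sided, is 0.333. The genes described next as higher or lower therefore did not pass at the level of the genotype, and their values describe these 4 clones.

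The 4 clones differed from each other over whole chromosomes as well, among genes of at least 2 CPM. On chromosome 7, which holds Plk1 and Ccnd1, KO clones 1 and 2 had median log2 changes of 0.59 and 0.61 against control clone e4. Against control clone e1 they were 0.07 and 0.11. Every KO library exceeded every control library in 119 of the 857 genes there, or 13.9%, the highest share of any chromosome, where the share over all genes of at least 2 CPM was 3.9%. Against WT, control clone e4 had a median of -0.49 on chromosome 7, while KO clone 1, KO clone 2 and control clone e1 were at 0.08, 0.11 and -0.00. On chromosome 15, which holds Cdh10, the medians were -0.43 and -0.55 against e4 and 0.06 and -0.08 against e1. On chromosome 6, which holds Rny1, Ppp1r9a, Zc3hav1, Tacr1 and Nfe2l3, they were -0.29 and -0.25 against e4 and -0.01 and -0.01 against e1. For chromosome 8, which holds Cdh11 and Ndrg4, they were -0.26 and -0.26 against e4 and 0.04 and 0.03 against e1. On chromosome X, which holds Sytl5 and Gspt2, they were -0.30 and -0.18 against e4 and -0.08 and 0.06 against e1. On chromosome 1, which holds Lgr6, Nmnat2 and Map2, KO clone 2 stood at -0.55 against e1 and -0.27 against e4, and KO clone 1 at -0.04 and 0.20. For chromosome 19, which holds Ide, the medians were -0.27 and -0.28 against e4 and 0.06 and 0.06 against e1, so the level of Ide lay farther below control than its chromosome in every pair. For chromosome 11, which holds Dusp18, all 4 medians lay between 0.03 and 0.09. The part of these shifts in the other results was not tested.

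**Figure D3:**
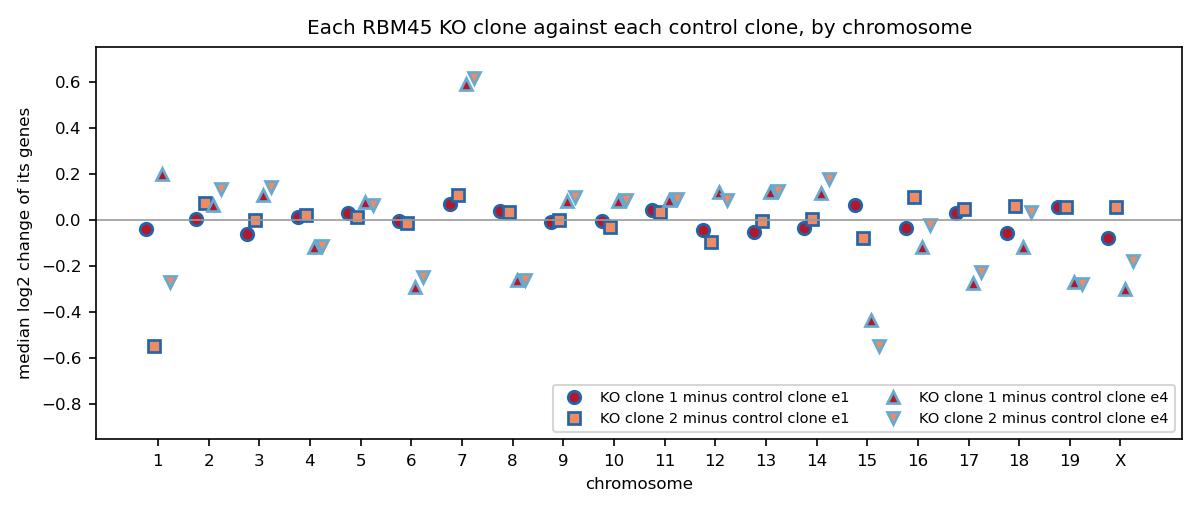
Median log2 change of the genes of each chromosome for each KO clone against each control clone; the fill gives the KO clone and the edge the control clone. Both comparisons with control clone e4 stand high on chromosome 7 and low on chromosome 15, and both with KO clone 2 stand low on chromosome 1.

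Among genes of at least 2 CPM whose KO and control libraries did not overlap, the lower gene with the smallest p was Dusp18 (chromosome 11, 3895240 to 3901296, plus strand), a dual-specificity phosphatase. It stood at 0.215 and 0.258 CPM in KO clone 1 and 0.586 and 0.454 CPM in KO clone 2, against 9.77 and 7.82 CPM in control clone e1 and 8.44 and 10.7 CPM in control clone e4. The gap between the sides was far wider than the spread between clones of either. The log2 change was -4.57 (SE 0.48, edgeR quasi-likelihood adjusted p 0.754) and -4.99 over exon bins alone. Both long exon bins were low in KO, with 0.179 ± 0.0783 CPM in KO and 5.63 ± 0.671 CPM in control over 2407 bp, and 0.0818 ± 0.119 CPM in KO and 3.24 ± 0.375 CPM in control over the 1943 bp that follow (SD, n = 4 libraries each). WT averaged 5.69 CPM, on the control side.

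Besides Dusp18 and Ide, Sytl5 and Lgr6 were the lower genes also called in all 4 pairs. Sytl5, a Rab effector of the synaptotagmin-like family, stood at 0.0838 to 0.258 CPM in KO libraries and 1.31 to 8.34 CPM in control libraries. Lgr6, a receptor for R-spondins that strengthens Wnt signalling, was at 15.7 and 14.4 CPM in KO clone 1 and 3.43 and 4.17 CPM in KO clone 2, against 48.9 and 47.2 CPM in control clone e1 and 124 and 137 CPM in control clone e4. The 2 clones of each genotype thus differed from each other in Lgr6, and WT, at 18.8 CPM, lay nearer to KO.

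The remaining lower genes differed less. Nfe2l3, a basic leucine zipper transcription factor, averaged 1.26 ± 0.330 CPM in KO and 3.36 ± 1.497 CPM in control. Fyb2, an adaptor protein gene, averaged 5.23 ± 0.7996 CPM in KO and 11.6 ± 2.83 CPM in control. Magi3, a scaffold of cell junctions, averaged 31.3 ± 1.58 CPM in KO and 53.8 ± 17.4 CPM in control. For these and for Micu3, a regulator of the mitochondrial calcium uniporter, and Klf12, a zinc finger repressor, log2 changes lay between -1.48 and -0.71. Micu3 averaged 10.6 ± 0.568 CPM in KO and 17.03 ± 3.35 CPM in control, and Klf12 averaged 17.7 ± 1.63 CPM in KO and 30.2 ± 9.96 CPM in control (SD, n = 4 libraries each). In Nfe2l3, Fyb2, Magi3, Micu3 and Klf12 alike, the second library of each control clone was above the first. Nfe2l3 went from 2.36 to 4.12 CPM in control clone e1 and from 1.89 to 5.09 CPM in control clone e4.

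Of the 10 higher genes, the widest difference was in H2afy2 (chromosome 10, 61738665 to 61784147, minus strand), which codes for the histone variant macroH2A2, found in silent chromatin. It stood at 3.76 and 3.19 CPM in KO clone 1 and 6.95 and 6.74 CPM in KO clone 2, against 0.124 and 0.156 CPM in control clone e1 and 1.09 and 0.407 CPM in control clone e4. Of its 9 exon bins, 6 had no count in any control library. The bin at the 3′ end of the gene, which overlaps Aifm2 on the other strand, had 1, 1, 6 and 3 counts in the control libraries. The log2 change was 3.71 (SE 0.72, edgeR quasi-likelihood adjusted p 0.754), and WT, at 2.73 CPM, lay between the sides. Reads of H2afy2 and Aifm2 cannot be told apart where they overlap, and over exon bins alone the change was 4.42.

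Nacc2, a BTB domain repressor, averaged 55.3 ± 5.86 CPM in KO and 35.1 ± 1.504 CPM in control, and 25.7 CPM in WT, below both. Ncoa1, a coactivator of steroid receptors, averaged 18.5 ± 2.05 CPM in KO and 12.3 ± 1.598 CPM in control. Their log2 changes were 0.66 (SE 0.13) and 0.58 (SE 0.13), neither past edgeR's adjusted threshold. Ldah, a hydrolase of lipid droplets, averaged 8.37 ± 0.260 CPM in KO and 5.08 ± 0.348 CPM in control, the tightest spread of the named genes in KO relative to its mean. Col6a6, a collagen VI chain, averaged 5.98 ± 2.79 CPM in KO and 2.43 ± 0.657 CPM in control, with 1 KO library at 10.1 CPM and the others at 4.14 to 5.28 CPM. Zbtb7b, a zinc finger transcription factor, averaged 22.1 ± 2.85 CPM in KO and 14.9 ± 2.62 CPM in control. BC037039, inside the protocadherin cluster on the other strand, averaged 25.2 ± 4.67 CPM in KO and 14.6 ± 0.778 CPM in control. Mir6236, a microRNA gene, averaged 50.4 ± 5.80 CPM in KO and 23.9 ± 5.85 CPM in control (SD, n = 4 libraries each).

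The unedited line was nearer in CPM to the KO mean in 3 of the 10 higher and 5 of the 10 lower genes, and on a log2 scale in 5 of each. A gene on the other strand with counts overlapped 6 of the higher and 3 of the lower. Counted over exon bins alone, a recount of the same libraries, all 19 that could be tested kept their direction, 9 higher and 10 lower.

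**Figure D4:**
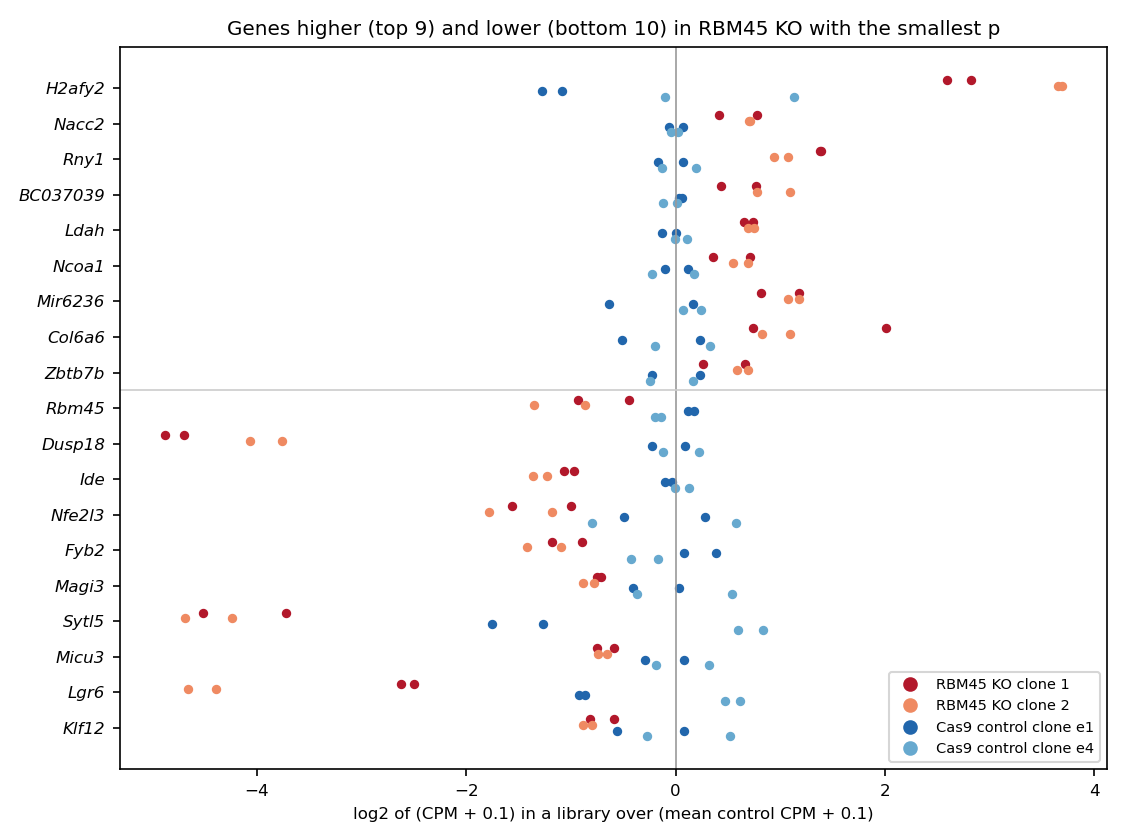
Level of each of 19 genes, 9 higher and 10 lower in KO, in each library, as log2 of CPM plus 0.1 over the mean control CPM plus 0.1; each point is 1 library. KO and control points do not overlap in any of the 19 genes, by the rule that chose them, and the gap is widest in Dusp18, Sytl5, Lgr6 and H2afy2.

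Compared clone by clone at the spread between libraries, the 4 pairs called 125 genes for KO clone 1 against control clone e1 (0.771% of 16223), 2796 for KO clone 2 against e1 (17.2%), 2982 for KO clone 1 against e4 (18.4%) and 4135 for KO clone 2 against e4 (25.5%). Genes called higher in KO in all 4 pairs numbered 8 (0.0493%), and genes called lower in all 4 numbered 9 (0.0555%). The count of 17 is bounded by the pair with 125 calls. Of the 17 genes, 7 are among the 20 above: H2afy2, Rny1 and Ldah higher, and Dusp18, Ide, Sytl5 and Lgr6 lower.

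Rny1 (chromosome 6, 47788069 to 47788180, minus strand) codes for a Y RNA, a small structured RNA that binds the Ro60 protein. It stood at 24.0 and 23.9 CPM in KO clone 1 and 19.3 and 17.6 CPM in KO clone 2, against 9.58 and 8.09 CPM in control clone e1 and 10.4 and 8.34 CPM in control clone e4. The libraries of a side lay close together and the sides did not overlap. The log2 change was 1.24 (SE 0.25, edgeR quasi-likelihood adjusted p 0.754), and WT, at 6.81 CPM, lay on the control side. Y RNAs have near copies across the genome, and reads that map to several places were left out, so the level is uncertain. Its 112 bases are shown whole, since the entire RNA is the counted feature, from GENCODE release 21, 5′ to 3′, with no part capitalised.
Rny1: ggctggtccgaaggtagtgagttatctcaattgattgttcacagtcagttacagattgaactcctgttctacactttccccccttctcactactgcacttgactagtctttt

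Among the other higher genes, Cdh11, a cadherin of mesenchymal cells and some neurons, varied most between clones. It stood at 11.1 and 10.7 CPM in KO clone 1 and 40.5 and 45.9 CPM in KO clone 2, against 5.66 and 5.06 CPM in control clone e1 and 0.397 and 0.814 CPM in control clone e4. The log2 changes in the pairs accordingly lay between 1.02 and 6.05, and WT, at 11.2 CPM, lay near KO clone 1. Ppp1r9a, the gene of the actin-binding protein neurabin, stood at 7.84 to 9.80 CPM in KO libraries, 3.30 and 3.44 CPM in control clone e1 and 0.0993 and 0.271 CPM in control clone e4. WT averaged 9.46 CPM of Ppp1r9a, at the level of KO.

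Nmnat2, an NAD-synthesising enzyme that sustains axons, averaged 7.55 ± 2.65 CPM in KO and 2.30 ± 1.10 CPM in control. Zc3hav1, an antiviral zinc finger protein that binds RNA, averaged 12.1 ± 3.15 CPM in KO and 5.09 ± 1.68 CPM in control. Isoc1 averaged 13.6 ± 1.68 CPM in KO and 6.84 ± 1.83 CPM in control (SD, n = 4 libraries each). WT lay nearer to KO in Nmnat2 and Zc3hav1 and nearer to control in Isoc1.

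Among the other lower genes, Cdh10, a cadherin of the nervous system, stood at 0.215 and 0.345 CPM in KO clone 1 and 0.754 and 0.757 CPM in KO clone 2, against 5.66 and 8.45 CPM in control clone e1 and 1.99 and 2.37 CPM in control clone e4. Cdh10 and Cdh11 thus lay in opposite directions. Tacr1, the receptor of substance P, averaged 7.44 ± 3.77 CPM in KO and 23.2 ± 4.31 CPM in control, with WT at 8.14 CPM. Ndrg4 averaged 12.7 ± 4.75 CPM in KO and 43.5 ± 20.3 CPM in control. The joined row of Srgap1, a GTPase-activating protein downstream of Slit and Robo, with Gm48804 averaged 3.57 ± 2.28 CPM in KO and 12.2 ± 3.12 CPM in control (SD, n = 4 libraries each). Gspt2, a paralog of the translation release factor eRF3, was at 0, 0, 0.0838 and 0 CPM in the KO libraries and 0.610 to 1.62 CPM in the control libraries.

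All 17 genes kept KO and control libraries apart, which the rule that chose them favours. All 17 kept their direction over exon bins alone, which is a recount of the same libraries. The unedited line was nearer to the KO mean in 6 of them in CPM and in 8 on a log2 scale. Leaving out 1 library at a time gave 10 to 23 genes, with 10 without the second library of control clone e1 and 11 without the second library of KO clone 1.

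**Figure D5:**
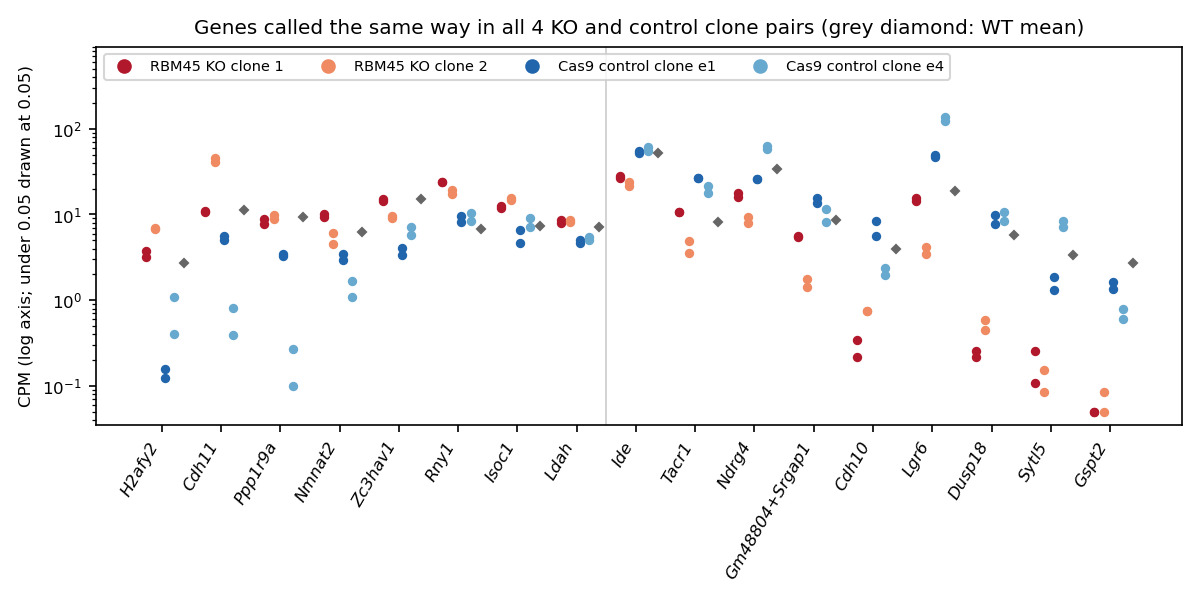
CPM, on a log axis, of the 17 genes called one way across the 4 pairs of clones; points are libraries and grey diamonds the mean of the 2 unedited WT libraries. Red and orange KO points lie above the blue control points in the 8 genes on the left and below them in the 9 on the right, and in Cdh11, Lgr6 and Ppp1r9a clones of 1 genotype stand well apart.

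Gene lists were described by their counts beside the median over all tested genes, which was -0.01. No member of any list passed the adjusted test of edgeR in the clone fit. Of 60 tested replication-dependent histone genes, whose transcripts are made in S phase and lack a poly(A) tail, 60 had a positive log2 change and 36 an unadjusted p under 0.05, with a median of 0.48. Over all tested genes 3.21% were higher at that p, and 3.53% had every KO library above every control library, which none of the 60 histone genes had. Their summed level was 3906 and 2511 CPM in KO clone 1 and 2998 and 2452 CPM in KO clone 2, against 2493 and 1673 CPM in control clone e1 and 2936 and 1523 CPM in control clone e4. In each clone the first library was higher than the second. Taken by library number, the sums did not overlap: both KO clones lay above both control clones among the first libraries and again among the second. The same held for 25 of the 60 genes singly, against 7.22% of all tested genes, a count added after the data were seen. The sums averaged 2966 ± 673 CPM in KO and 2156 ± 672 CPM in control (SD, n = 4 libraries each). Hist1h4c stood at 97.1, 66.7, 89.8 and 65.8 CPM in the KO libraries and 63.7, 49.0, 72.5 and 39.8 CPM in the control libraries. Hist1h3f, Hist2h3b and Hist1h2ag, the other 3 with the smallest p, had changes of 0.73, 0.53 and 0.57. Histone genes are near-identical to each other, so their single values are uncertain.

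Of 9 structural RNA genes, 9 had a positive change, with a median of 1.00. An unadjusted p under 0.05 was reached by 5, against 3.21% of all genes, and in 4 the KO libraries all lay above the control libraries, against 3.53%. Rny3, another Y RNA, stood at 26.6, 31.7, 40.0 and 35.9 CPM in the KO libraries and 17.6, 14.3, 20.2 and 11.6 CPM in the control libraries. Rnu12, the RNA of the minor spliceosome's U12 particle, averaged 9.43 CPM in KO and 5.48 CPM in control, and its sides overlapped. Vaultrc5, a vault RNA, had a change of 1.44 (SE 0.53). Of 69 snoRNA genes in the table, 10 lay wholly above control (14.5%, against 3.53% of all genes) and 0 below, with a median of 0.62, and of 39 snRNA genes 2 lay above and 0 below, with a median of 0.73. The summed structural RNAs were at 3567 and 2781 CPM in KO and 2655 and 3105 CPM in control among the first libraries, which overlap. Among the second libraries they were at 2500 and 2413 CPM in KO and 2178 and 1953 CPM in control, which do not. Rny1, Rny3, Rnu12 and Vaultrc5 each reached at most 40.0 CPM in a library, so other members made up most of these sums.

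The m6A and splicing lists had medians near that of all genes. Of 19 tested m6A writers, erasers and readers, 9 had a positive and 10 a negative change, with a median of -0.04. Igf2bp3, an RNA-binding protein that reads m6A, stood at 1.07, 1.98, 2.09 and 2.12 CPM in the KO libraries, 2.24 and 2.61 CPM in control clone e1 and 7.94 and 11.2 CPM in control clone e4, so the sides were closest between KO and e1. Its change was -1.73 (SE 0.65). Wtap, a subunit of the m6A writer, averaged 17.03 CPM in KO and 21.9 CPM in control (-0.35, SE 0.15), and Rbmx and Ythdc2 had changes of 0.53 and 0.47. Of 37 splicing regulators 18 had a positive and 19 a negative change, between -0.48 and 0.27, with a median of -0.01. The 4 with the smallest p were Ptbp2 (-0.48), Srsf10 (-0.27), Hnrnpa1 (-0.29) and Tra2a (-0.23), and of these Ptbp2, the neural homolog of Ptbp1, had an unadjusted p of 0.027 and overlapping sides.

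Of 9 tested neuronal genes 7 had a positive change, with a median of 0.19 and none under an unadjusted p of 0.05. Map2, a dendritic microtubule protein, stood at 105 and 107 CPM in KO clone 1 and 41.1 and 55.1 CPM in KO clone 2, against 112 and 125 CPM in control clone e1 and 92.7 and 138 CPM in control clone e4, so KO clone 2 lay below the control libraries and KO clone 1 within their range. Map2 is on chromosome 1, where KO clone 2 was low as a whole against the control clones but near WT. Medians of that chromosome against WT were -0.05 in KO clone 2, 0.44 in KO clone 1, 0.49 in e1 and 0.21 in e4. WT averaged 53.0 CPM of Map2, between the libraries of KO clone 2. Gap43, a growth cone protein, was at 1.89 to 3.53 CPM in KO libraries and 0.0678 to 1.83 CPM in control libraries. Syn1 and Dlg4, both synaptic, had changes of 0.33 and 0.19, and for Syn1, which overlaps Araf and Timp1 on the other strand, the change over exon bins alone was -1.04. Of 9 neural progenitor genes 8 had a positive change (median 0.45). Against e1 and e4 the list medians were 0.13 and 0.23 for KO clone 1, and 0.54 and 0.60 for KO clone 2. Notch1, a receptor that keeps progenitors undifferentiated, stood at 49.8 and 42.0 CPM in KO clone 1 and 81.8 and 75.4 CPM in KO clone 2, against 37.8 to 39.8 CPM in the 4 control libraries. Vim and Sox2 had changes of 0.45 and 0.55, and Prom1 was at 1.09 and 1.36 CPM in KO clone 2 and at 0 to 0.136 CPM in the other 6 libraries. WT averaged 6.50 CPM of Prom1, above every KO and control library. The sides overlapped in Vim, Sox2 and Prom1.

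Of 32 axon guidance genes 21 had a positive change (median 0.13). For KO clones 1 and 2 the list medians were 0.31 and 0.35 against e4, and 0.03 and -0.06 against e1. An unadjusted p under 0.05 was reached by 3, 2 of them higher, against 3.21% higher and 2.61% lower over all tested genes. Ephb2, an ephrin receptor, averaged 10.9 CPM in KO and 3.47 CPM in control. Epha7 was at 3.77 and 3.64 CPM in KO clone 2 and listed at 0 in KO clone 1 and in both control clones. Sema3a, a repellent of growth cones, was at 2.93 to 4.70 CPM in KO libraries, 3.98 and 6.52 CPM in control clone e1 and 14.99 and 24.1 CPM in control clone e4. Sema5a had a change of 1.68 (SE 0.74), with 18.9 and 18.95 CPM in KO clone 1 and 47.5 and 45.5 CPM in KO clone 2, against 2.09 to 18.1 CPM in the control libraries. Of 8 cell adhesion genes 5 had a positive change (median 0.24). Their list medians for KO clones 1 and 2 were 0.62 and 0.43 against e4, and 0.05 and -0.54 against e1. Cdh10, lower, and Cdh11, higher, were the 2 that also passed in all 4 pairs. Over all tested genes 0.0493% passed higher and 0.0555% lower in all 4. Cdh2 and Mcam had changes of 0.34 and -0.36.

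Of 18 interferon response genes 15 had a positive change (median 0.38). Against e4 the list medians were 0.94 and 1.14 for KO clones 1 and 2, and against e1 they were -0.06 and 0.00. Eif2ak2, the double-stranded RNA kinase PKR, was lower, at 10.5 to 15.9 CPM in KO libraries and 16.3 to 28.3 CPM in control libraries, while Zc3hav1 had a change of 1.24 and Ifi44 and Ifit3b were under 1 CPM in every library. Of 24 cell cycle genes 10 had a positive change (median -0.04). Plk1, a mitotic kinase, was at 47.0 to 55.0 CPM in KO libraries and 31.1 to 44.3 CPM in control libraries. Its log2 change for KO clones 1 and 2 was 0.65 and 0.58 against e4, and 0.30 and 0.23 against e1. Ccnd1, cyclin D1, was highest in KO clone 2, at 185 and 159 CPM. KO clone 1 had 104 and 81.2 CPM of it and control libraries 67.1 to 87.8 CPM. Both genes are on chromosome 7, where control clone e4 was low as a whole. In Ccnd1, however, the changes were smaller against e4 than against e1. They were 0.19 and 1.09 for KO clones 1 and 2 against e4, and 0.43 and 1.32 against e1. WT averaged 131 CPM of Ccnd1. Aurka and Mcm4 had changes of 0.26 and -0.29.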

How the data were processed

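The deposited values are counts of fragments per gene and per exon bin. The file headers name featureCounts 1.6.3, and the submitters' processing notes name HISAT2 2.1.0 and mm10. The headers' options assign a fragment to each feature that covers at least 0.1 of it on its strand, without multi-mapping reads. Per the labels' protocols the kit keeps no strand, so genes that overlap on opposite strands cannot be told apart. Annotation and sequences came from GENCODE mouse release 21 (GRCm38).

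From these counts, edgeR 4.0.16 in R 4.3.3 fitted the sums of 6 clones (TMM scaling, filterByExpr, quasi-likelihood test, 3 residual degrees of freedom) and the 16 libraries (8 residual degrees of freedom). Exon bins averaging 10 counts or more went into diffSpliceDGE, whose natural-log coefficients were turned into log2. The threshold was a Benjamini-Hochberg adjusted p under 0.05. Alternatives used limma 3.58.1, DESeq2 1.42.0, other filters and scalings, and fits without a clone or library. Tables and figures were made with Python 3.11.15, pandas 2.3.3 and matplotlib 3.10.9. The fits were tested on simulated counts.

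The text names the 10 higher and 10 lower genes with the smallest p among genes of at least 2 CPM whose sides did not overlap, leaving out predicted genes, Rik clones, pseudogenes and joined rows. It also names every gene and bin called in all 4 pairs, every called bin, and the 4 members of each list with the smallest p. Of the 10 higher genes, 1 is not reported here, though counts over the 10 include it. The members and lists were chosen with earlier results of these data known. No label says that the 2 libraries of a clone came from separate cultures, so p-values in the pairs may measure technical spread. Columns e1 and e4 were given to the control group because every other column matches other labels.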

Additional observations from a re-analysis of the deposited data

Results flagged for a closer look

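Gspt2 was at 0.0838 CPM, or 1 count, in the first library of KO clone 2 and at 0 CPM in the other 3 KO libraries. With those 3 all at 0, any count in the remaining library would have been flagged, so the flag says little about that library. Control libraries were at 0.610 to 1.62 CPM. Among 68 groups of 4 libraries examined, over the named genes and bins, this was the 1 group flagged, and chance flags about 1 in 20 groups.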

How the results depend on the processing

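The count of genes called between genotypes with clones as units was 0 with DESeq2's size factors, without a filter on low counts, with the 4 clones alone, with exon bins summed per gene and with the 12 abundant rows left out. It was 6 with DESeq2's Wald test, 3 on the 8 libraries without the replicate number in the fit and 2 with the replicate number as a block, and 0 to 10 when 1 clone or library was left out, with 10 without control clone e1 and 8 without KO clone 1. Libraries with the same replicate number deviated together, although no label says what the number marks: differences between the first and second library correlated between clones across 9731 genes with r between 0.252 and 0.635. The count of genes called in all 4 pairs was 58 without a low-count filter, 23 with the block and 10 to 23 when a library was left out. Exon bins called with clones as units numbered 8 at a mean of at least 5 counts, 8 with limma's diffSplice and 1 to 6 when a clone was left out, and the Ide bin was called each time. Bins called in all 4 pairs numbered 3 at a mean of at least 20 counts, 1 with the block, and 1 to 2 when a library was left out. For the 20 genes named by p, the genes called in all 4 pairs and the called bins, no direction was reversed in any of these settings. Among the 4 members of each list with the smallest p, which were recomputed only over exon bins, Syn1 was reversed, at -1.04. The direction of the other list members was not compared. Of the results for single genes and bins, 610 kept their side of the threshold, 11 passed only in the alternative and 8 lost the call. Counts under about 10 per library limit the Nfix, Tacc2 and Gspt2 values.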

Other observations

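Akt1 (chromosome 12, minus strand), a serine/threonine kinase of insulin and growth factor signalling, had 2 neighbouring exon bins called by limma's diffSplice but not by edgeR with clones as units. The bin of 207 bp (112674000 to 112674206) averaged 9.63 ± 1.98 CPM in KO and 3.62 ± 0.838 CPM in control (SD, n = 4 libraries each), with an adjusted p of 4.48e-07 by limma and 1 by edgeR. In edgeR's pairs it passed in 3 of 4 (adjusted p 0.00589, 0.0245 and 0.00561), and not in KO clone 1 against control clone e1 (0.0749). Its neighbour of 70 bp averaged 1.51 ± 0.323 CPM in KO and 0.413 ± 0.298 CPM in control, with an adjusted p of 3.47e-04 by limma and 0.904 by edgeR, and it passed in 0 pairs.

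Hmgn2, a relative of Hmgn1, had a 45 bp bin with 1, 3, 1 and 0 counts in the KO libraries and 41, 26, 2 and 26 counts in the control libraries, and edgeR's adjusted p was 0.138. As in Hmgn1, the first library of control clone e4 lay far below the other control libraries.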
